A study of Oncorhynchus mykiss with 12 samples.

Results

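Hemoglobin loci of rainbow trout were followed in liver after 1 month of moderate hypoxia. A locus was taken when its description began with hemoglobin and named a subunit or an alpha or beta chain, or when its symbol began with hba or hbb. The rule found 52 of the 42128 rows of the RNA-seq table, 28 alpha and 24 beta, of which 3 alpha and 3 beta loci were found by symbol alone. Several rows share a symbol, so each locus is given with its NCBI gene number. The fish were labelled wild-type, and both groups are liver tissue of this one phenotype. The hypoxia group carries the treatment label hypoxia stress and was kept for 1 month at 4.5 ± 0.1 mg/L dissolved oxygen, against a group labelled control with no oxygen value. RNA-seq and small RNA were each sequenced in 3 hypoxia and 3 control libraries, giving 12. The labels do not say whether replicates are separate fish or pools, so p-values measure the spread between these libraries only.

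Hemoglobin carries oxygen in red cells as a tetramer of alpha and beta chains, each holding a heme group. Fish red cells keep a nucleus and RNA, and in adult trout they form mainly in the head kidney. Liver is rich in blood, so a liver library also samples the red cells within the tissue. In bony fish the alpha and beta loci are interleaved in clusters, one kind beside mpg and nprl3 and another near lcmt1 and aqp8, and salmonids carry additional clusters from their own genome duplication.

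RNA-seq libraries held 19060468 to 23152833 counts, and levels are given as FPKM, the count scaled for transcript length and library size. The libraries carried liver RNA, with albumin (alb1 100499622) at 13781, 16919 and 14757 FPKM in hypoxia libraries and 11339, 10479.9 and 11978 FPKM in control libraries. Control replicate 1 stood between the groups on the first principal component of all genes, at -7.78, where the hypoxia libraries lay at 20.7 to 29.9 and the other controls at -36.6 and -35.6. Calls that change without it are given beside the result.

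Of the 52 loci, 23 were expressed at a level that could be tested, defined as a mean of at least 0.5 FPKM over all libraries. These were 12 of the 28 alpha and 11 of the 24 beta loci. Another 24 loci, 14 alpha and 10 beta, had no count in any library. The remaining 5 loci had 1 or 2 counts in total. A count of 0 allows up to 3 counts, which is 0.130 to 0.157 CPM in a library (CPM is the count scaled to the library total), a limit that covers counting error only. Embryonic was part of the description of 14 loci, and 1 of these, the beta locus hbb2 100135792, was tested.

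Liver hemoglobin transcripts were about 2-fold lower after 1 month of hypoxia, for alpha and for beta chains alike. The summed level of the 28 alpha loci was 570.0, 537 and 394.5 FPKM in hypoxia livers (mean 500.5 ± 93.2, SD, n = 3) and 1008, 832 and 1166 FPKM in control livers (mean 1002 ± 167, SD, n = 3). The summed level of the 24 beta loci was 522, 485 and 391 FPKM in hypoxia livers (mean 466 ± 67.8, SD, n = 3) and 890.0, 731 and 1009 FPKM in control livers (mean 877 ± 139, SD, n = 3). For both chains the highest hypoxia library lay below the lowest control library, and hypoxia replicate 3 was the lowest of all. The difference of the means was larger than the SD within either group, with a control to hypoxia ratio of 2.0 for alpha and 1.88 for beta. In bulk tissue, fewer red cells and less hemoglobin RNA per red cell cannot be told apart.

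Summing counts instead of FPKM gave the same picture. Alpha loci summed to 363, 334 and 249 CPM in hypoxia libraries and 619, 524 and 719 in control libraries, a log2 ratio of the means of -0.98. Beta loci summed to 426, 394 and 319 CPM in hypoxia libraries and 741, 585.5 and 787 in control libraries, a log2 ratio of -0.89. Hemoglobin loci together took 0.0789%, 0.0727% and 0.0569% of all counts in the hypoxia libraries, against 0.136%, 0.111% and 0.151% in the control libraries. The log2 ratio lay between -1.09 and -0.83 for alpha and between -1.01 and -0.78 for beta when any 1 library was left out, and without control replicate 1 it was -0.98 for alpha and -0.85 for beta.

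**Figure D1:**
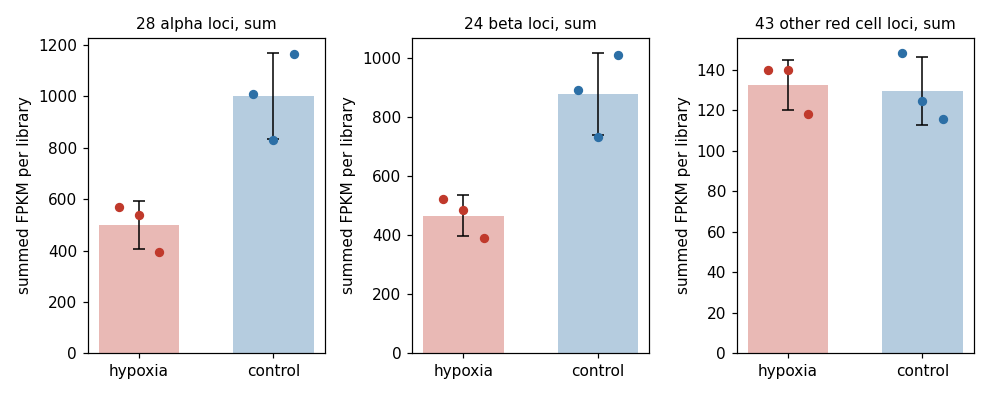
Summed FPKM per library of the 28 alpha loci, the 24 beta loci and 43 other red cell loci, with bars for the mean of 3 libraries, whiskers for the SD and points for replicates 1 to 3 from left to right. Alpha sums lie at 394.5 to 570.0 in hypoxia against 832 to 1166 in control and beta sums at 391 to 522 against 731 to 1009, while the sums of the other red cell loci overlap. The largest part of the last sums is the transferrin receptor locus tfr1a 110509090, which is also expressed outside red cells.

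Alpha and beta sums were close to each other in every library. The ratio of alpha to beta counts was 0.852, 0.848 and 0.781 in hypoxia libraries and 0.835, 0.896 and 0.913 in control libraries, and the groups overlapped. The same ratio from summed FPKM was 1.09, 1.11 and 1.01 in hypoxia libraries and 1.13, 1.14 and 1.16 in control libraries, without overlap. Over all loci, overlap of the groups thus differed between counts and FPKM. In counts it rested on the beta locus hbb2 100135792. Without this locus, alpha counts in hypoxia libraries were 7122, 6715 and 4752, each below the beta counts of 7155, 6718 and 5106. In control libraries alpha counts were 11991, 11538 and 16641, each above the beta counts of 11709, 11029 and 16227. The count ratios then did not overlap, and neither did the FPKM ratios. The ratio was not tested.

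Each locus was read from 1 edgeR quasi-likelihood fit over all 19365 genes tested, with Benjamini-Hochberg adjustment and a threshold of 0.05. In this fit 3.39% of all genes were called lower in hypoxia and 3.83% higher (7.22% in either direction), and the median log2 fold change of all genes was -0.004. Of the 12 alpha loci tested, 8 were called lower, 0 higher and 4 neither, with a median log2 fold change of -0.92. Of the 11 beta loci tested, all 11 were called lower, with a median of -0.91. The alpha and beta medians were thus almost equal, and 22 of the 23 loci had a negative log2 fold change, as did 50.5% of all genes. The FPKM of the 2 groups did not overlap, with hypoxia lower, at those 22 loci, where 13.1% of all genes had that pattern and 27.0% were without overlap in either direction.

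Calls at single loci changed when single libraries were left out, as the calls of all genes did. Of the 19 loci called lower, 9 changed by at least 2-fold and 10 by less. Of the 19, 9 (6 alpha and 3 beta) stayed past the threshold in each of the 6 fits that left out 1 library. The beta count of 11 became 5, 6 and 3 when hypoxia replicate 1, 2 or 3 was left out. In the same fits the 1398 calls of all genes became 361, 472 and 432. The beta count became 5 when control replicate 3 was left out and 10 when control replicate 1 or 2 was. Calls of all genes became 497 without control replicate 3, and 2186 and 473 without control replicates 1 and 2. The alpha count of 8 became 6 to 9. The authors' deposited table called 10 alpha and 10 beta loci lower and 0 higher, where it called 3.45% of the same 19365 genes lower.

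The libraries kept the same order at most loci. Hypoxia replicate 3 was the lowest hypoxia library at 21 of the 22 loci with a negative change, and hypoxia replicate 1 was the highest at 19. Control replicate 3 was the highest control library at 14 of the 22, control replicate 1 at 6 and control replicate 2 at 2. The loci therefore move together from library to library and are not independent of each other. Loci may also share reads, since near-identical copies are involved and the way the authors assigned such reads is not given in the sources used here. No hemoglobin locus had counts equal to those of another row in all libraries, while 75 other tested genes did.

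**Figure D2:**
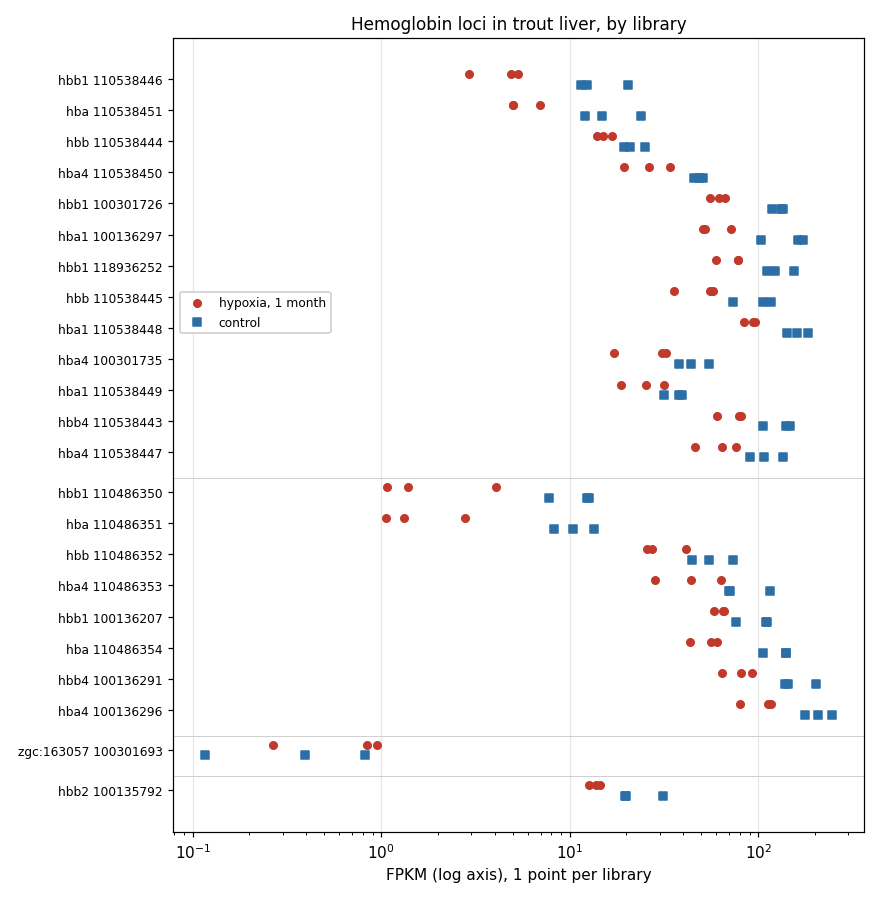
FPKM on a log axis of the 23 hemoglobin loci tested, 1 point per library, hypoxia as red circles above control as blue squares, with gene symbol and NCBI gene number and grey lines between the 4 clusters. At 22 loci all red circles lie left of all blue squares, and alpha-D (zgc:163057 100301693) is the exception.

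The gene order of the reference assembly USDA_OmykA_1.1 places the 52 loci in 4 clusters, with no other protein-coding gene inside any of them. The largest holds 31 loci between Nprl3 and kank2, 16 alpha and 15 beta. A second cluster between another Nprl3 and another kank2 holds 14, 7 alpha and 7 beta. Another, between rhbdf1b and aqp8a.2, holds 5 alpha loci and 1 beta locus, and the last site is the single locus hbb2 100135792 between rhbdf1 and AQP8. The expressed loci lay together at 1 end of each large cluster. In the largest, the 13 loci next to Nprl3 were the ones tested, and the 18 loci from position 14 on had at most 2 counts in all. In the second, the 8 loci next to Nprl3 were tested and the 6 beyond them had at most 2 counts each. Of the 14 loci with embryonic in their description, 13 lie in these stretches with few or no counts.

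The most abundant locus lay at the far end of the expressed stretch of the second cluster. Hba4 100136296, described as alpha-globin I, had 112, 117 and 80.3 FPKM in hypoxia livers and 206, 177 and 247 FPKM in control livers. It was the most abundant hemoglobin locus, with 11.2% of the hemoglobin FPKM in control livers, and its log2 fold change was -1.05 (SE 0.19, edgeR adjusted p = 0.0118). Its neighbour hbb4 100136291, described as beta-globin, had 93.1, 81.5 and 64.2 FPKM in hypoxia livers and 144.3, 138 and 202 FPKM in control livers. The change was -1.05 (SE 0.19, edgeR adjusted p = 0.0129), and the adjusted p was 0.0526 without hypoxia replicate 3. At both loci the groups were clearly apart, with hypoxia replicate 3 lowest and control replicate 3 highest.

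Among the alpha loci between the ends of these stretches, 3 kept their call in each leave-one-out fit. Hba1 100136297 had 52.3, 72.1 and 50.8 FPKM in hypoxia livers and 163, 103 and 173 FPKM in control livers, a log2 fold change of -1.34 (SE 0.22, edgeR adjusted p = 0.00903). Hba 110486354 had 60.7, 56.3 and 43.4 FPKM in hypoxia livers and 141, 106 and 140.2 FPKM in control livers, a change of -1.29 (SE 0.17, edgeR adjusted p = 0.00639). Control replicate 2 was the lowest control at both loci, yet well above every hypoxia library. Hba1 110538448, at 95.7, 93.3 and 83.7 FPKM in hypoxia livers and 160.2, 142 and 183 FPKM in control livers, fell by less, with a change of -0.85 (SE 0.14, edgeR adjusted p = 0.00956). In the reference annotation this locus lies inside the model of the beta locus hbb 110538445, so reads of the 2 may not be separable.

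The other 5 alpha loci of these clusters changed less or varied more. Hba4 110538450 had 34.2, 26.4 and 19.3 FPKM in hypoxia livers and 51.0, 45.4 and 48.7 FPKM in control livers, a log2 fold change of -0.88 (SE 0.18, edgeR adjusted p = 0.0198). Hba4 110538447 had 76.5, 64.2 and 46.3 FPKM in hypoxia livers and 108, 90.5 and 135 FPKM in control livers, a change of -0.86 (SE 0.20, edgeR adjusted p = 0.0318). Both fell, but the first lost its call in 2 and the second in 4 of the 6 leave-one-out fits. Hba4 110486353 had 63.5, 43.9 and 28.4 FPKM in hypoxia livers and 70.6, 70.3 and 115 FPKM in control livers, a change of -0.95 (SE 0.28, edgeR adjusted p = 0.0643, and 0.0372 without control replicate 1). Hba4 100301735 had 32.4, 30.8 and 17.2 FPKM in hypoxia livers and 44.2, 38.1 and 54.8 FPKM in control livers, a change of -0.79 (SE 0.23, edgeR adjusted p = 0.0649). These 2 did not pass the threshold here, whereas the authors' deposited table gives adjusted p-values of 0.00872 and 0.0212 for them. Hba1 110538449 had 31.8, 25.5 and 18.8 FPKM in hypoxia livers and 37.8, 39.5 and 31.8 FPKM in control livers, a change of -0.51 (SE 0.19, edgeR adjusted p = 0.137). Its highest hypoxia and lowest control libraries nearly touched in FPKM. Scaled to library totals its groups overlapped, with 571 of 19607958 counts in hypoxia replicate 1 and 614 of 23152833 in control replicate 3.

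Among beta loci of the large clusters, hbb1 100301726 had the smallest SE. It had 66.5, 61.8 and 55.4 FPKM in hypoxia livers and 135, 118 and 132 FPKM in control livers, a log2 fold change of -1.09 (SE 0.13, edgeR adjusted p = 0.00553). This was the smallest adjusted p of all 23 loci. Hbb4 110538443 had 79.0, 80.6 and 60.6 FPKM in hypoxia livers and 140.1, 105 and 147 FPKM in control livers, a change of -0.85 (SE 0.17, edgeR adjusted p = 0.0176). Hbb1 118936252 had 77.9, 77.7 and 59.7 FPKM in hypoxia livers and 122.5, 111 and 154 FPKM in control livers, a change of -0.87 (SE 0.17, edgeR adjusted p = 0.0171). In both, hypoxia replicates 1 and 2 were nearly equal and replicate 3 was lower, and both lost their call in 3 of the 6 leave-one-out fits.

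The model of hbb1 118936252 overlaps that of hbb 110538445 in the reference annotation. Hbb 110538445 had 57.6, 55.7 and 35.9 FPKM in hypoxia livers and 106, 73.7 and 117 FPKM in control livers, a log2 fold change of -0.96 (SE 0.21, edgeR adjusted p = 0.0231). Hbb 110486352 had 41.4, 27.2 and 25.6 FPKM in hypoxia livers and 54.8, 44.7 and 73.4 FPKM in control livers, a change of -0.91 (SE 0.22, edgeR adjusted p = 0.0328). Neither group pair overlapped, though at hbb 110486352 hypoxia replicate 1 came close to control replicate 2. The call held in 2 of the 6 leave-one-out fits at hbb 110538445 and in 3 at hbb 110486352. Hbb1 100136207 had 66.1, 65.1 and 58.4 FPKM in hypoxia livers and 111, 76.3 and 109.95 FPKM in control livers, a change of -0.67 (SE 0.16, edgeR adjusted p = 0.0328). Hbb 110538444 had 16.8, 15.01 and 13.9 FPKM in hypoxia livers and 25.1, 19.5 and 20.98 FPKM in control livers, a change of -0.54 (SE 0.14, edgeR adjusted p = 0.0439). Hbb1 100136207 was past the threshold in 2 of the 6 leave-one-out fits. Hbb 110538444 was the least changed beta locus and was past the threshold in 0 of the 6.

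The beta and alpha locus nearest Nprl3 in each large cluster fell further than the loci beyond them, a pattern noticed after the values were seen. Hba 110486351 had 2.79, 1.32 and 1.06 FPKM in hypoxia livers, from 33, 16 and 12 counts, and 10.4, 8.26 and 13.4 FPKM in control livers, from 110 to 189 counts. Its log2 fold change of -2.66 (SE 0.33, edgeR adjusted p = 0.00639), 6.34-fold, was the largest of the 23 loci. Hbb1 110486350 had 4.09, 1.07 and 1.38 FPKM in hypoxia livers, from 49, 13 and 16 counts, and 7.73, 12.7 and 12.3 FPKM in control livers, from 91, 171 and 175 counts. It changed by -2.36 (SE 0.40, edgeR adjusted p = 0.00982). The size rested partly on hypoxia replicate 1, without which the change was -3.17, and it was -2.05 without hypoxia replicate 2. In this pair hypoxia replicate 1 was the highest hypoxia library and stayed below the lowest control.

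The corresponding pair of the largest cluster behaved alike. Hbb1 110538446 had 5.30, 4.89 and 2.93 FPKM in hypoxia livers and 12.4, 11.4 and 20.4 FPKM in control livers, a log2 fold change of -1.78 (SE 0.29, edgeR adjusted p = 0.00882), 3.45-fold. Hba 110538451 had 6.92, 5.03 and 5.02 FPKM in hypoxia livers and 14.9, 12.1 and 24.0 FPKM in control livers, a change of -1.62 (SE 0.27, edgeR adjusted p = 0.00903). Control replicate 3 was the highest library at both. All 4 loci of these pairs stayed past the threshold in each leave-one-out fit, with adjusted p-values up to 0.0499.

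The other 17 tested loci of both clusters changed by -1.34 to -0.51. These 17 are more abundant, with control means of 21.9 to 210.2 FPKM, than the 4 loci nearest Nprl3. The 4 together took 1.47%, 1.02% and 1.11% of hemoglobin counts in hypoxia libraries, against 2.02%, 2.44% and 2.85% in control libraries, without overlap. Their summed CPM had a log2 ratio of -1.94, and those of the 17 a ratio of -0.92. Because the pairs were picked by their values, this difference was not tested. Nprl3 itself, a subunit of the GATOR1 complex whose introns hold the distal alpha-globin enhancers in mammals, did not pass the threshold at either locus. Nprl3 110486348, beside the second cluster, had 1.30, 1.86 and 1.93 FPKM in hypoxia livers and 2.34, 2.82 and 2.101 FPKM in control livers, a log2 fold change of -0.52 (SE 0.20, edgeR adjusted p = 0.15). Nprl3 110538440, beside the largest cluster, had a change of 0.04 (SE 0.16, edgeR adjusted p = 0.900). Of 13 tested genes from the families that flank hemoglobin clusters, 0 passed, where 7.22% of all genes did, so the count does not set them apart. Without control replicate 3, AQP8 110502897 passed.

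**Figure D3:**
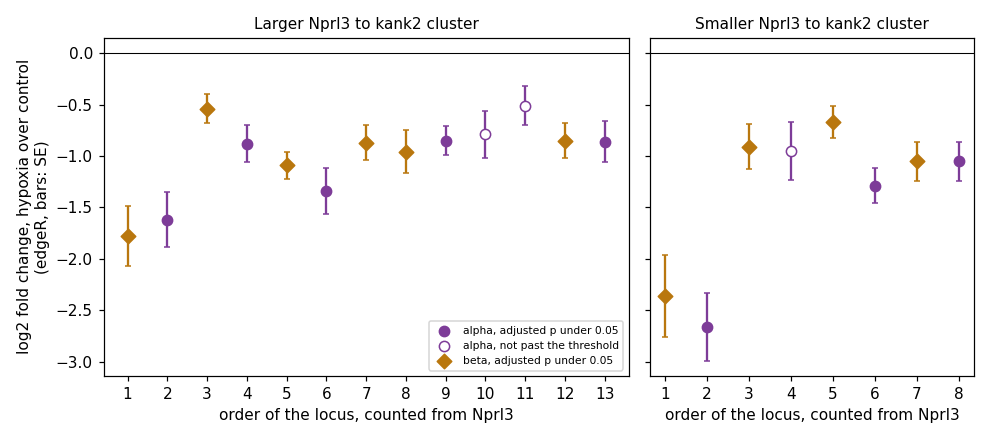
Log2 fold change, hypoxia over control, with edgeR SE, of the tested loci of the largest (left) and the second (right) cluster, in order from Nprl3, alpha as circles and beta as diamonds, open where the adjusted p missed 0.05. The pair nearest Nprl3 lies at -1.78 and -1.62 on the left and -2.36 and -2.66 on the right, and the other 17 loci lie between -1.34 and -0.51.

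Outside the large clusters, 2 loci were tested. Alpha-D (zgc:163057 100301693), named after the chain of the minor hemoglobin of birds and reptiles, had 0.845, 0.952 and 0.267 FPKM in hypoxia livers and 0.395, 0.116 and 0.821 FPKM in control livers. These rest on 13, 15 and 4 counts in hypoxia libraries and 6, 2 and 15 counts in control libraries, and the groups overlapped. Its log2 fold change was 0.59 (SE 0.69, edgeR adjusted p = 0.652), so no difference was detectable at this depth, and the change was 1.46 without control replicate 3.

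The single beta locus hbb2 100135792, described as embryonic beta-type globin2, was well expressed in these livers. It had 14.5, 13.8 and 12.7 FPKM in hypoxia livers and 31.3, 19.6 and 19.98 FPKM in control livers, a log2 fold change of -0.84 (SE 0.18, edgeR adjusted p = 0.0211). Control replicate 1 was far above the other controls, and without it the change was -0.61 (edgeR adjusted p = 0.0178). The call held in 3 of the 6 leave-one-out fits. It was lost without hypoxia replicate 1, 2 or 3, with edgeR adjusted p-values up to 0.083. The length implied by its counts and FPKM was 4306 bases, against 482 to 1055 bases for the tested loci of the large clusters, so this row may count more than a beta-chain transcript. Its neighbour AQP8 110502897, a water channel, had 30.6, 31.9 and 30.8 FPKM in hypoxia livers and 66.3, 42.3 and 36.7 FPKM in control livers, also with control replicate 1 highest. AQP8 had a change of -0.65 (SE 0.18, edgeR adjusted p = 0.0559). Whether the 2 rows share reads was not tested.

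Other red cell transcripts were read from the same fit. A list of 18 red cell genes matched 43 loci, of which 23 were tested, 1 was called lower and 0 higher, with a median log2 fold change of -0.18 and 10 positive and 13 negative changes. That share is close to the 3.39% of all genes called lower and 7.22% called in either direction. The list is not pure, since tfr1a, UBE2H, ankyrin and EPB41 loci are also expressed outside red cells. Its summed level was 139.6, 139.7 and 118.0 FPKM in hypoxia livers and 148, 124 and 116 FPKM in control livers, and the groups overlapped. The largest part of this sum was tfr1a 110509090, at 55.9, 53.0 and 51.2 FPKM in hypoxia livers and 63.1, 46.0 and 33.2 FPKM in control livers. The sum therefore does not measure red cell content alone. The band 3 locus slc4a1b was at 0 in every library, and rhd, gata1 and klf1 loci were too low to test.

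Red cell markers differed among themselves in direction, with 10 positive and 13 negative changes over the list. Among members not detailed below, ank1b 110523541 changed by -0.65 (edgeR adjusted p = 0.201) and cahz 100135827 by -0.36 (edgeR adjusted p = 0.334). Slc25a37 110536004 was lower in every hypoxia library, a pattern 13.1% of all genes had, with a change of -0.46 (edgeR adjusted p = 0.177). In the other direction, sptb 110497630 changed by 0.35 (edgeR adjusted p = 0.334). The ankyrin loci Ank1 110525713 and ANK1 110536085 changed by 0.33 (edgeR adjusted p = 0.399) and 0.18 (edgeR adjusted p = 0.478). At ANK1 110536085 the groups did not overlap, with hypoxia higher. Alas2, the red cell enzyme for the first step of heme synthesis, had 9.68, 7.97 and 5.35 FPKM in hypoxia livers and 9.06, 5.90 and 8.18 FPKM in control livers, a log2 fold change of -0.03 (SE 0.22, edgeR adjusted p = 0.960). Hemgn 110497349, encoding the red cell nuclear protein hemogen, had 15.5, 18.4 and 13.7 FPKM in hypoxia livers and 12.9, 15.8 and 12.9 FPKM in control livers, a change of 0.18 (SE 0.16, edgeR adjusted p = 0.558). Alas2 and this hemogen locus overlapped between the groups. The other hemogen locus, 110497350, had 10.96, 10.9 and 7.98 FPKM in hypoxia livers and 7.89, 6.69 and 7.55 FPKM in control livers. It was higher in every hypoxia library, with a change of 0.41 (SE 0.16, edgeR adjusted p = 0.159), and did not pass the threshold. Of all genes, 27.0% were without overlap in either direction. Band 3, the chloride and bicarbonate exchanger of the red cell membrane, had changes of -0.58 (edgeR adjusted p = 0.157) at slc4a1 100136769 and -0.26 (edgeR adjusted p = 0.467) at slc4a1 100136955. Rhag, the Rh-associated gas channel, had changes of 0.02 (edgeR adjusted p = 0.978) at Rhag 100136711 and -0.49 (edgeR adjusted p = 0.347) at rhag 110529405. The SE was 0.23 and 0.20 at the band 3 loci and 0.21 and 0.29 at the Rhag loci, in the order given, and the groups overlapped at each of the 4.

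The 1 locus called was UBE2H 110496780, a ubiquitin-conjugating enzyme made in maturing red cells and in other tissues. It had 3.41, 3.26 and 3.21 FPKM in hypoxia livers and 5.06, 4.86 and 4.97 FPKM in control livers, a log2 fold change of -0.61 (SE 0.12, edgeR adjusted p = 0.0175). Its call held in 1 of the 6 leave-one-out fits. The other 3 UBE2H loci did not pass, but their groups did not overlap either, with hypoxia lower, a pattern 13.1% of all genes had. Their changes were -0.51 (edgeR adjusted p = 0.0677) at 110490613, -0.49 (edgeR adjusted p = 0.0725) at 110522154 and -0.41 (edgeR adjusted p = 0.126) at 110490612. Without control replicate 1, 3 loci of the list passed, 1 lower and 2 higher, where 11.3% of all genes did. The 2 higher were the transferrin receptors tfr1b and TFRC, which bring iron into cells.

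Set against alas2, hemogen, band 3 and Rhag within each library, hemoglobin was lower in hypoxia livers. Ratios to other single genes of the red cell list, UBE2H and slc25a37 among them, were not taken. The ratio of hemoglobin to alas2 FPKM was 113, 128 and 147 in hypoxia libraries and 209.5, 265 and 266 in control libraries. The ratio to both hemogen loci was 41.3, 34.8 and 36.2 in hypoxia libraries and 91.2, 69.5 and 107 in control libraries. The ratio to the band 3 loci was 168, 119.9 and 155 in hypoxia libraries and 214, 217 and 209 in control libraries. None of these ratios overlapped between the groups, and neither did the ratio to the Rhag loci, at 370.4, 230.1 and 229.9 in hypoxia libraries and 405 to 572 in control libraries. The ratio to the summed red cell list, of which tfr1a was the largest part, was 7.82, 7.31 and 6.65 in hypoxia libraries and 12.8, 12.6 and 18.8 in control libraries. The tested alas2, hemogen, band 3 and Rhag loci themselves changed by -0.58 to 0.41, none past the threshold. The hemoglobin sums already did not overlap between the groups, so these ratios give no separate support. Hemoglobin RNA per red cell was not tested.

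**Figure D4:**
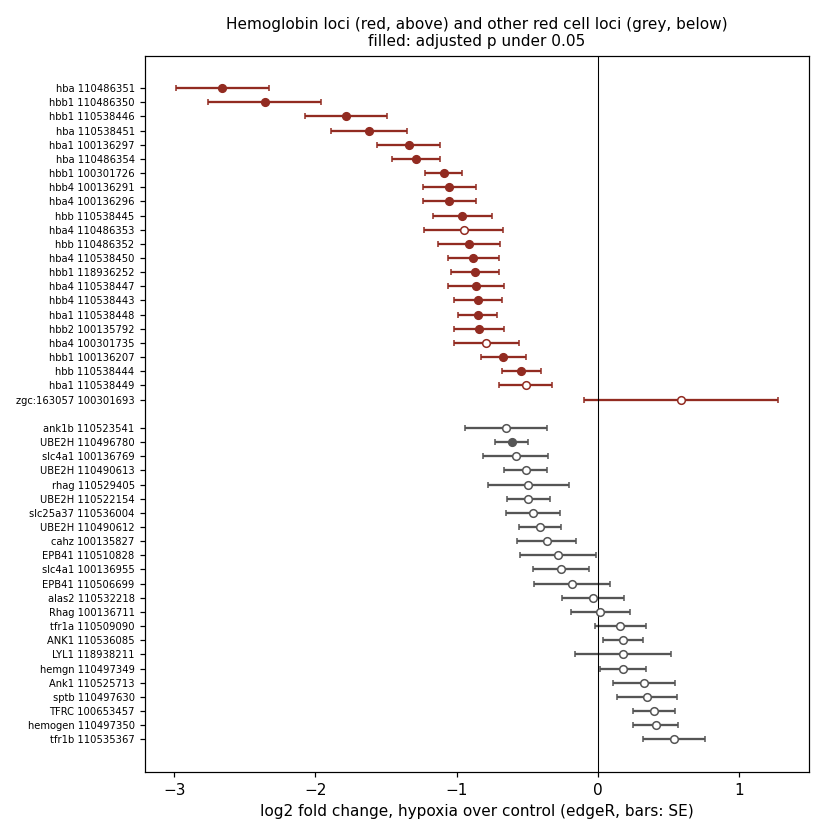
Log2 fold change, hypoxia over control, with edgeR SE, of 23 hemoglobin loci (red, above) and 23 other red cell loci (grey, below), filled where the adjusted p was under 0.05. Hemoglobin loci lie at -2.66 to -0.51 apart from alpha-D at 0.59, and the other red cell loci spread from -0.65 to 0.54 on both sides of 0.

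Markers of other cells in the tissue are given for comparison, against the 7.22% of all genes called. Of 20 hepatocyte loci tested, 1 was called higher (fibrinogen gamma, Fgg 110497452, log2 fold change 0.93, SE 0.18, edgeR adjusted p = 0.0166), with a list median of -0.13. Its mean over all libraries was 80.8 FPKM. The other fibrinogen gamma locus, FGG 110534419, had a mean of 5280 FPKM and changed by -0.07 (SE 0.15, edgeR adjusted p = 0.83). Of 14 leukocyte loci and 8 thrombocyte loci, 0 were called, with medians of 0.15 and -0.17. Of 13 endothelial loci, 1 was called lower (cadherin-5, CDH5 110506352, -0.53, SE 0.14, edgeR adjusted p = 0.0441). All 13 had negative changes, where 50.5% of all genes did, with a median of -0.29. The Fgg call held in 3 and the CDH5 call in 1 of the 6 leave-one-out fits. Without control replicate 1, 5 hepatocyte loci passed, 4 lower and 1 higher, and 1 leukocyte locus was higher, where 11.3% of all genes passed. The lower loci included FGB 110536443 and FGB 118959894, which had equal FPKM in every library and may rest on the same reads. Without control replicate 2, 1 thrombocyte locus was lower. The summed endothelial level was 25.7, 25.2 and 27.6 FPKM in hypoxia livers and 33.0, 30.1 and 29.8 FPKM in control livers, without overlap. Among single genes, 13.1% were without overlap with hypoxia lower. The part of endothelial or blood content in the hemoglobin result was not tested.

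Heme, the oxygen-binding group of hemoglobin, is also made in liver for other proteins. Of 15 heme synthesis loci tested, 1 was called higher and 1 lower, where 7.22% of all genes were called, with a median log2 fold change of 0.11. The lower locus was alas1 110528663, the first enzyme of the pathway outside red cells, at 45.6, 45.3 and 51.9 FPKM in hypoxia livers and 60.8, 96.7 and 82.4 FPKM in control livers, a change of -0.78 (SE 0.18, edgeR adjusted p = 0.0280). The higher locus was alad 110523566, the second enzyme, at 4.37, 5.25 and 4.94 FPKM in hypoxia livers and 2.93, 2.67 and 1.41 FPKM in control livers, a change of 1.07 (SE 0.23, edgeR adjusted p = 0.0214). Neither group pair overlapped, where 27.0% of all genes were without overlap in either direction. The other alad locus, 110509774, changed by 0.17 (SE 0.17, edgeR adjusted p = 0.579), and its groups overlapped. Without control replicate 1, 4 loci of the list passed, 3 lower and 1 higher, where 11.3% of all genes did. Whichever hypoxia library was left out 0 passed, where 361 to 472 of the 19365 genes did. Without control replicate 2 or 3, 1 passed, where 473 and 497 genes did.

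Calls among genes that clear hemoglobin and heme depended on control replicate 1. Of 13 tested loci, 1 was called higher, a share close to the 7.22% of all genes called. It was BLVRB 110525440, encoding flavin or biliverdin reductase, with a log2 fold change of 1.25 (SE 0.34, edgeR adjusted p = 0.0493). It had 2.90, 2.46 and 3.81 FPKM in hypoxia livers and 1.68, 0.714 and 1.37 FPKM in control livers, and the groups did not overlap. The call held in 1 of the 6 leave-one-out fits, the one without control replicate 1. The other BLVRB loci, 110507468 and 110503591, changed by 0.49 (edgeR adjusted p = 0.119) and 0.14 (edgeR adjusted p = 0.694). Of the BLVRB loci 110503591 was the most abundant, at a mean of 38.2 FPKM over all libraries. Hemopexin, the plasma carrier of free heme, had changes of opposite sign at its loci, 0.51 (SE 0.16, edgeR adjusted p = 0.0731) at hpxa 100136785 and -0.33 (SE 0.14, edgeR adjusted p = 0.196) at hpxb 100136612. At neither did the groups overlap, and neither passed. Among all genes, 27.0% were without overlap in either direction. Haptoglobin (HP 118936659), which binds free hemoglobin, had a change of -0.41 (SE 0.19, edgeR adjusted p = 0.225).

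Without control replicate 1, 6 of the 13 clearance loci passed, 3 lower and 3 higher, where 11.3% of all genes did. When any other library was left out 0 passed, where only 361 to 497 of the 19365 genes did. The fit without control replicate 1 was singled out after seeing the data. The lower loci were haptoglobins, with log2 fold changes of -0.58 (edgeR adjusted p = 0.0463) at HP 118936659, -2.63 (edgeR adjusted p = 0.000624) at HP 100135921 and -0.93 (edgeR adjusted p = 0.00309) at HP 118964916. Besides BLVRB 110525440, the higher loci were heme oxygenases, the enzymes that open the heme ring, with 1.65 (edgeR adjusted p = 0.0147) at hmox 110485518 and 1.51 (edgeR adjusted p = 0.00296) at hmox 118936555. Hmox 110485518 had 11.5, 21.1 and 9.34 FPKM in hypoxia livers and 25.6, 5.20 and 3.53 FPKM in control livers. HP 100135921 had 5.41, 5.05 and 11.1 FPKM in hypoxia livers and 3.30, 45.9 and 39.3 FPKM in control livers. Control replicate 1 lay on the far side of the hypoxia libraries from the other controls at both loci. With all libraries neither passed (edgeR adjusted p = 0.775 for hmox 110485518 and 0.087 for HP 100135921).

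Transcripts of 1 locus for erythropoietin, the hormone that drives red cell formation, were higher in hypoxia livers. Epo 110531655 had 3.22, 2.78 and 4.08 FPKM in hypoxia livers and 1.71, 1.05 and 1.29 FPKM in control livers, a log2 fold change of 1.31 (SE 0.20, edgeR adjusted p = 0.00838). Every hypoxia library lay above every control library, and the call held in all 6 leave-one-out fits. Of all genes, 3.83% were called higher and 27.0% were without overlap in either direction. The epo 110509923 locus had a change of -0.39 (SE 0.46, edgeR adjusted p = 0.652), and the receptor epor 110486479 a change of -0.30 (SE 0.31, edgeR adjusted p = 0.599). Of 10 loci for other globins, only cytoglobin (cygb 100136084) was expressed enough to test, at 6.28, 5.59 and 4.14 FPKM in hypoxia livers and 4.03, 5.13 and 1.97 FPKM in control livers. Its groups overlapped, with a change of 0.51 (SE 0.29, edgeR adjusted p = 0.317).

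Red cells are also marked by the miRNAs miR-144 and miR-451, which are transcribed together in vertebrates and are known from zebrafish red cell maturation. They were measured in the small RNA libraries, which held 8822671 to 13614506 counts and which the labels do not tie to single RNA-seq libraries. The 4 rows that could be tested, at a mean of at least 1 TPM (here the count scaled to the library total), have the sequences below, 5′ to 3′ in the DNA letters of the deposited table with the seed, bases 2 to 8, in capitals. They are shown because they mark red cells in a kind of library separate from the hemoglobin counts, and no seed is shared between them.
miR-144-x: gGATATCAtcatatactgtaagt
miR-144-y: cTACAGTAtagatgatgtact
miR-451-x: tAACCGTTaccattactgagttt
miR-451-y: tTTAGCAAtggtaagggttct

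None of the 4 rows passed the threshold in either direction, where 0.196% of all rows did. Changes were positive at 3 of the 4, as they were at 52.4% of all rows tested. MiR-144-y had 252, 255 and 201 TPM in hypoxia libraries and 94.9, 159 and 71.7 TPM in control libraries. MiR-451-x had 318, 431 and 191 TPM in hypoxia libraries and 230.3, 142 and 137 TPM in control libraries. MiR-451-y had 24.1, 24.7 and 15.6 TPM in hypoxia libraries and 14.3, 7.02 and 11.3 TPM in control libraries. The groups did not overlap for miR-144-y and miR-451-y, a pattern with hypoxia higher that 10.4% of the 510 rows tested had, and they overlapped for miR-451-x. MiR-144-x had 10.02, 17.6 and 11.9 TPM in hypoxia libraries and 10.1, 12.2 and 48.1 TPM in control libraries, and its log2 fold change was 0.13 without control replicate 3.

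With edgeR 0 of the 4 rows passed an adjusted p of 0.05, where 0.196% of all rows did. At an unadjusted edgeR p under 0.05, 2 of the 4 did, where 4.90% of all rows were higher at that level. DESeq2 called 1 and limma 0, and the share of all rows that either called is not given here. The log2 fold change of miR-144-y was 1.09 (SE 0.25, edgeR adjusted p = 0.214), with 0.0273 from DESeq2 and 0.178 to 0.830 in edgeR without 1 library. The changes were 0.80 (SE 0.34, edgeR adjusted p = 0.511) for miR-451-x, 0.87 (SE 0.39, edgeR adjusted p = 0.548) for miR-451-y and -1.03 (SE 0.65, edgeR adjusted p = 0.584) for miR-144-x. The hepatocyte miRNA miR-122-x, the most abundant liver miRNA in vertebrates, had a change of -0.27 (SE 0.20, edgeR adjusted p = 0.648). It had 443797, 451117 and 471997 TPM in hypoxia libraries and 476840, 480157 and 577468 TPM in control libraries, without overlap. This row is a large part of every library, and its effect on the TPM of other rows was not tested.

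**Figure D5:**
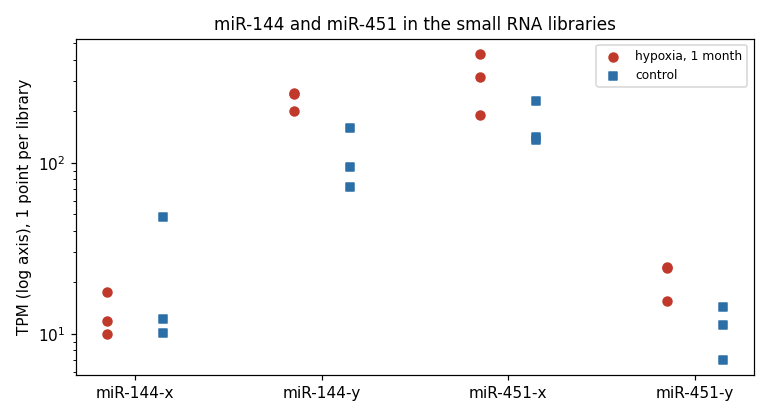
TPM on a log axis of the 4 tested miR-144 and miR-451 rows, 1 point per small RNA library, hypoxia as red circles left of control as blue squares. Hypoxia libraries of miR-144-y lie at 201 to 255 TPM against 71.7 to 159 TPM in control, and 1 control library of miR-144-x stands at 48.1 TPM.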

How the data were processed

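Liver RNA was extracted with Trizol and sequenced as RNA-seq and small RNA libraries, per the labels' protocols. The deposited RNA-seq table holds raw counts and FPKM per gene, per the file headers, and the deposited small RNA table holds counts and TPM per miRNA row with its sequence and length. The authors' comparison stands beside them as a log2 fold change and its p-value, raw and adjusted. Per the submitters' processing notes, TopHat2 2.1.1 and Bowtie2 2.2.8 were used, for steps they do not state. How reads were assigned to genes, which build and annotation served and which test the authors ran is not given in the sources used here.

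Counts were fitted with edgeR 4.0.16 (TMM scaling, quasi-likelihood test, 2-sided, group only) in R 4.3.3 on 19365 genes with a mean of at least 0.5 FPKM and 510 miRNA rows with a mean of at least 1 TPM. SE is the log2 fold change divided by the root of the F statistic. The fit was tested on simulated data. The alternatives used DESeq2 1.42.0, limma 3.58.1 on log2(FPKM + pseudocount), upper-quartile scaling, scaling without hemoglobin loci, no filter, a replicate block and each library left out. All 52 loci matched the reference gene table of USDA_OmykA_1.1, used for names, gene order and the overlap of gene models, and no coordinates are given. Hemoglobin loci, miR-144 and miR-451 rows were all examined, and from the other 10 lists up to 4 members past the threshold, the 2 of highest level where none passed, and defining markers could be named. The members and lists were chosen with earlier results of these data known. Replicate pairs differed by more than sampling noise (chi-square per degree of freedom 12.4 to 30.1 for RNA-seq and 115 to 786 for small RNA). A group exposed for a shorter time was not analysed here.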

Additional observations from a re-analysis of the deposited data

How the results depend on the processing

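At 22 of the 23 tested loci the change was below 0 under each of the 14 alternatives. Alpha calls were 8 in the main fit, 3 with limma at a pseudocount of 0.1, 7 or 10 in the other whole-data alternatives that changed the count, and 6 to 9 without 1 library. Beta calls were 11, and 6, 2 and 7 with limma at pseudocounts of 0.5, 0.1 and 1, and 3 to 10 without 1 library. For all genes the 1398 calls became 734, 183 and 927 with these limma settings and 361 to 2186 without 1 library. The highest number came without control replicate 1. Red cell calls were 0 with limma at 0.1 and 0 to 3 without 1 library, and heme synthesis calls were 1 and 0 with limma at 0.5 and 0.1 and 0 to 4 without 1 library. Leaving out libraries in the other 8 lists, chosen after seeing the data, gave 0 to 6 calls a list; the 6 were clearance loci without control replicate 1. DESeq2 called 1 red cell miRNA, and the share of all rows it called is not given here. MiR-144-x changed sign without control replicate 3, its log2 fold change running from -1.52 to 0.13 without 1 library. Fits with 2 libraries in a group have fewer samples; the cause of the other shifts was not tested.

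Replicate numbers are shared between groups, but same-numbered libraries did not deviate together (correlations of -0.047, 0.05 and -0.048 in RNA-seq and 0.092, -0.003 and 0.273 in small RNA). With the number as a replicate block, 7 alpha loci, 9 beta loci, 2 red cell loci, 2 heme synthesis loci, 1056 genes in all and 0 miRNAs passed.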
